A study of Mus musculus with 2 samples.

Results

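The 9 Wnt ligands Wnt2, Wnt4, Wnt5a, Wnt6, Wnt7a, Wnt7b, Wnt10a, Wnt11 and Wnt16 were followed across the cells of the mouse uterus. They were taken by symbol from the 32285 listed genes, and each of the 9 was found in both count matrices. The study compared whole uteri of female mice aged 6 months. Control mice carried the floxed alleles alone (Prickle1 f/f), and conditional knockout (cKO) mice carried them with an Ltf-driven Cre (Prickle1 f/f Ltf-cre, written Ltf-iCre in the design text). Both groups therefore carried the floxed Prickle1 alleles, and the groups follow the sample titles, since a separate genotype entry names both C57BL/6J wild-type. Ltf encodes lactoferrin and is transcribed in uterine epithelium, so the Cre is aimed at the epithelium and not at the stroma. For each group the uteri of 3 mice were pooled into 1 library. No difference below has a replicate check, no p-value is given, and every interval is an exact 95% interval that covers counting error only.

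Wnt proteins are secreted, lipid-modified ligands. They bind Frizzled receptors, and with the co-receptors Lrp5 and Lrp6 they stabilise beta-catenin (canonical signalling), whereas with Ror or Ptk7 co-receptors they can signal without it, including through planar cell polarity, the pathway in which Prickle1 acts. In the uterus, Wnt7a is a product of the luminal epithelium needed for gland formation, Wnt4 is needed for stromal decidualisation, and Wnt5a is a mainly mesenchymal ligand needed for the posterior female tract.

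Cells were barcodes with at least 500 genes and at most 20% mitochondrial UMIs (unique molecular identifiers, counts of captured transcripts). There were 3653 control and 4950 cKO cells with medians of 4650 and 5944 UMIs, and the 2 sets shared 5 barcodes. A class held cells with a UMI of its own gate gene and of no other gate gene: Epcam for epithelial, Pdgfra for stromal, Actg2 for muscle, C1qa for macrophage, Cd3e or Ncr1 for lymphoid and Msln for mesothelial. The epithelial class had 947 control and 103 cKO cells, with medians of 6195 and 12093 UMIs. The stromal class had 621 and 1469 cells, with medians of 11763 and 15694 UMIs. The other classes had 290 and 537 muscle, 231 and 112 macrophage, 158 and 435 lymphoid, and 26 and 32 mesothelial cells. A further 1201 control and 1998 cKO cells had no gate gene, and 179 and 264 had gate genes of several classes. The independent markers were highest in the class they name in both libraries, except that Dcn of the stromal list was higher in the mesothelial class and Krt19 of the mesothelial list in the epithelial class. In the cKO epithelial class, however, 51.5% of the 103 cells had a UMI of the keratin gene Krt8 and 42.7% had one of the leukocyte gene Ptprc, against 95.2% and 3.48% of the 947 control cells. Prickle1 itself had 14 UMIs in the control and 4 in the cKO epithelial class, or 0.831 and 1.31 CPM (UMIs of a gene per 1000000 UMIs of the class), a cKO to control ratio of 1.58 (0.379 to 5.03). No difference was detectable in that class at this depth, and the part of leukocyte RNA in its 4 cKO UMIs was not tested. Outside the epithelium Prickle1 was higher in the library labelled cKO: 3.85 and 9.05 CPM in the stromal class (ratio 2.35, 1.61 to 3.54), 5.01 and 29.0 CPM in the lymphoid class (5.79, 2.16 to 21.8) and 2.65 and 8.24 CPM in all cells (3.11, 2.49 to 3.90). A 3′ tag outside a deleted part would not show the deletion, so the targeted gene did not check the label, and cKO below means the library labelled so.

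The genes lie apart in the genome except for Wnt6 and Wnt10a, which are neighbours on chromosome 1 (74771892 to 74785322 and 74791516 to 74804179 in GRCm38, both on the plus strand). Wnt2, Wnt7a and Wnt16 are on chromosome 6, at 17988940 to 18030585, 91363981 to 91411363 and 22288227 to 22298522. Wnt4 is on chromosome 4 (137277489 to 137299726), Wnt5a on 14 (28504750 to 28527448), Wnt7b on 15 (85535437 to 85582473) and Wnt11 on 7 (98835112 to 98855195). GENCODE M21 places a gene on the other strand over Wnt5a (Gm2670), Wnt6 (Gm29539), Wnt7b (AU022754) and Wnt11 (Gm8398), and whether the counting used strand is not given in the sources used here. In all cells Gm2670 had 3 control and 19 cKO UMIs and AU022754 had 58 and 6, so these partners were counted far less often than Wnt5a and Wnt7b.

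RefSeq promoter windows on GRCm38.p6 were found for 6 of the 9 ligands (Wnt2, Wnt4, Wnt6, Wnt7a, Wnt11 and Wnt16). Of these, 3 are shown because the genes stood for 3 patterns below: Wnt7a in the epithelial class, Wnt16 in the cKO stromal class and Wnt11 in cells outside the gates. Each run is the 240 bases from 250 to 11 bases before the annotated start, 5′ to 3′ on the gene's strand. Capitals mark matches, on either strand, to the TATA box (TATAAA), the GC box (GGGCGG), the TCF/LEF core (CTTTGA) or the AP-1 site (TGANTCA).
Wnt7a, chr6:91411364-91411603, minus strand: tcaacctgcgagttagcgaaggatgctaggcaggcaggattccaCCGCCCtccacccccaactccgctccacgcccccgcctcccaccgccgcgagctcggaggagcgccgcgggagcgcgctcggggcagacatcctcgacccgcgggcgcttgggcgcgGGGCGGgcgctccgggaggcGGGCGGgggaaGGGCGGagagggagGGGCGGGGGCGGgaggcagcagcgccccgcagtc
Wnt16, chr6:22287977-22288216, plus strand: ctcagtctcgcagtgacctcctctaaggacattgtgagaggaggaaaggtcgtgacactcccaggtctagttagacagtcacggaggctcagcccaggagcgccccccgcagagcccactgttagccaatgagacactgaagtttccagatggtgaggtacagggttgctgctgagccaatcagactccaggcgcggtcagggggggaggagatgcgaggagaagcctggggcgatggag
Wnt11, chr7:98834862-98835101, plus strand: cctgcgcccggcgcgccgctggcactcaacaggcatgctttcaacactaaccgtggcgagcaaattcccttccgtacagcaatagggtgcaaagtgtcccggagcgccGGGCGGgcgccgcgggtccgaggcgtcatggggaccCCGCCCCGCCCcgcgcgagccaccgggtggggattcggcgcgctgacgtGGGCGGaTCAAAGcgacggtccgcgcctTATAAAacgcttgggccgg
The Wnt7a window was 77.1% G or C and held 6 GC boxes, the last 2 of them side by side. The Wnt16 window was 59.6% G or C and held none of the 4 motifs. The Wnt11 window was 69.6% G or C and held 4 GC boxes (2 of them overlapping), 1 TATA box and 1 TCF/LEF core. The table holds another Wnt11 window, at a downstream start (chr7:98838595-98838834), which was 57.1% G or C and held none of the 4 motifs. Over the 32851 windows of this length in the table, whose median was 52.1% G or C, 31.3% held a GC box, 12.1% a TATA box, 13.5% a TCF/LEF core and 6.58% an AP-1 site. A match describes the letters only.

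**Figure D1:**
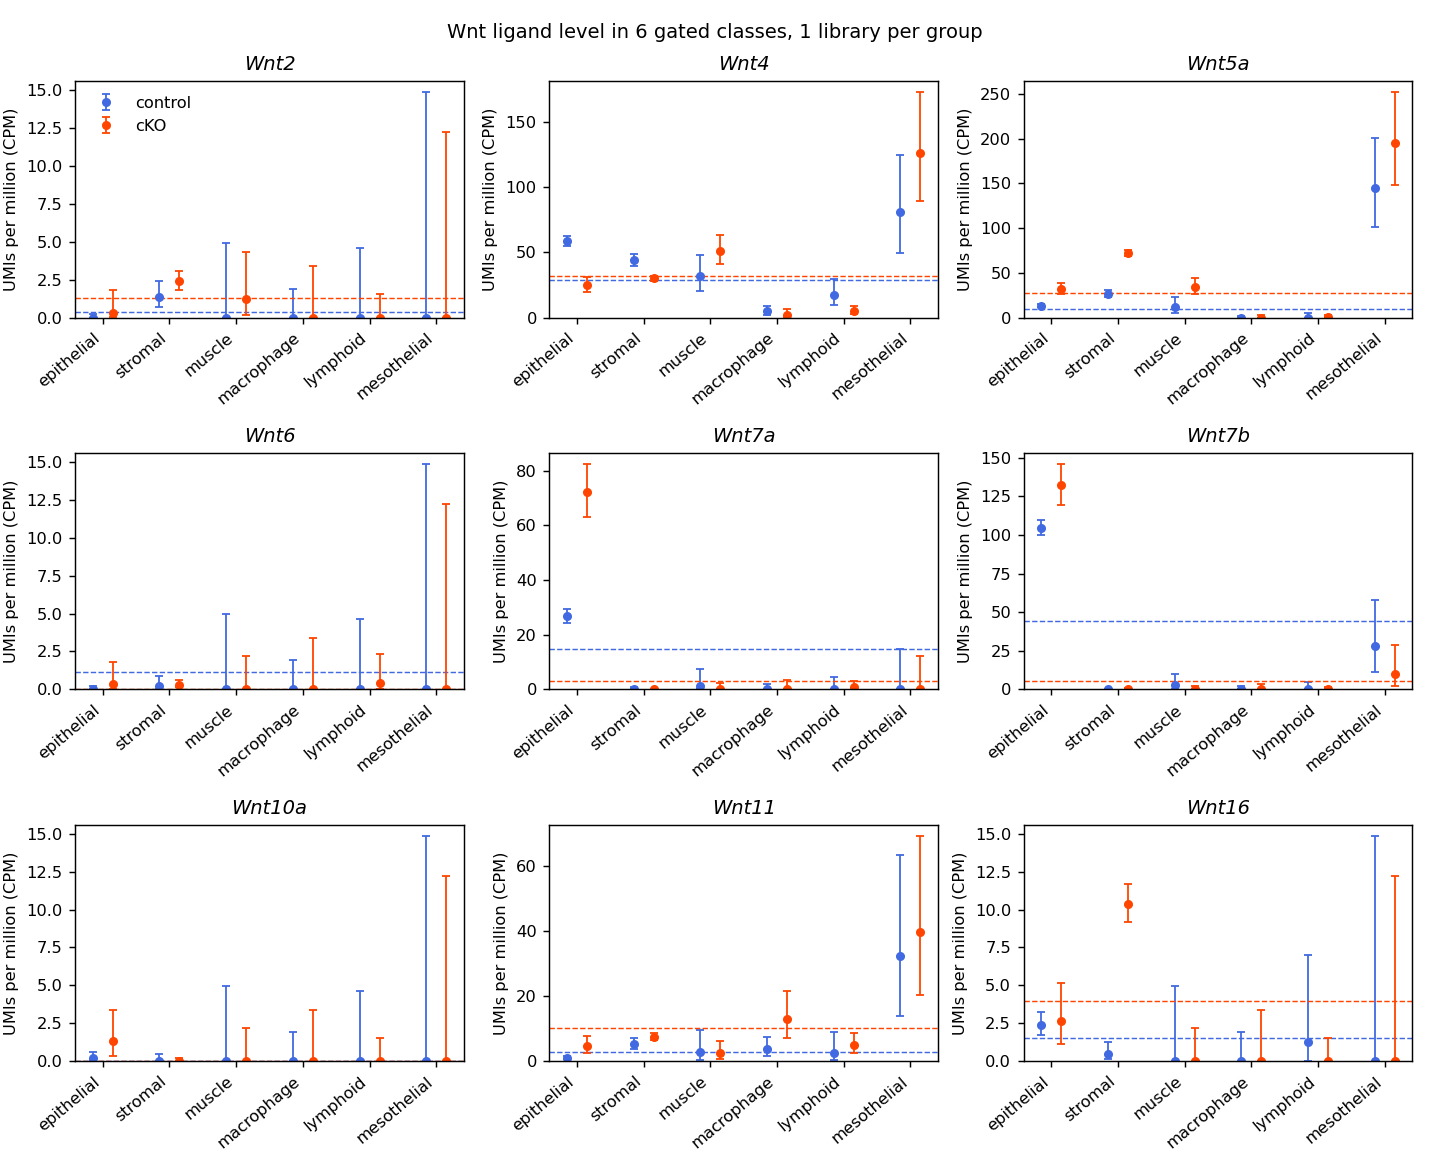
Level of each Wnt ligand (CPM) in the 6 gated classes of the control and cKO libraries, 1 library each. Points are summed counts, bars exact 95% Poisson intervals and dashed lines the level in cell-free barcodes; Wnt7a and Wnt7b stand high in the epithelial class, Wnt16 in the cKO stromal class and Wnt4, Wnt5a and Wnt11 in the mesothelial class.

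Wnt7a and Wnt7b, a pair of closely related ligands that can act through beta-catenin, were epithelial. In the control library 83.9% of the Wnt7a UMIs and 86.5% of the Wnt7b UMIs found in cells came from the epithelial class, and in the cKO library 90.9% and 81.4%. Wnt7a stood at 26.9 CPM (24.5 to 29.5) in the control epithelial class, and no other control class had more than 2 UMIs of it. Wnt7b stood at 105 CPM (99.8 to 110) there, 3.71-fold (1.80 to 9.25) above the mesothelial class, which was next with 7 UMIs (a log2 ratio of 1.89, or 0.47 with overlapping gates). Outside these classes Wnt7b had 2 UMIs in control muscle and 8 in cKO stromal cells, 7 of them in 1 cell, and Wnt7a had 2 in cKO lymphoid cells. Each had 0 UMIs in the macrophage class of both libraries (231 and 112 cells, medians of 7999 and 8101.5 UMIs), although cell-free barcodes held Wnt7b at 44.2 CPM in control and 5.69 in cKO. In all cells together Wnt7a was 14.3 CPM in control and 4.57 in cKO, and Wnt7b 54.1 and 9.36, alongside the smaller number of epithelial class cells in the cKO library.

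Within the epithelial class the direction was the other way. Wnt7a was 26.9 CPM in control against 72.3 in cKO, a ratio of 2.69 (2.28 to 3.16), and Wnt7b was 105 and 132 CPM, a ratio of 1.26 (1.13 to 1.41). These sums rested on few cKO cells: Wnt7a UMIs were found in 25 of 103 cKO cells, and the 10 highest cells held 83.2% of them, against 23.8% in the 10 highest of 192 positive control cells. For Wnt7b the 10 highest of 29 positive cKO cells held 90.3%. With each cell thinned to 1000 UMIs, 1.91% of 940 control cells and 2.91% of 103 cKO cells had a Wnt7a UMI (20.3% and 24.3% without thinning), and 8.51% and 4.85% had a Wnt7b UMI (42.3% and 28.2%).

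The epithelial ratios differed between ranges of cell depth. Among epithelial class cells with at least 20000 UMIs (249 control, 35 cKO), Wnt7a was 28.8 CPM in control against 84.6 in cKO, a ratio of 2.94 (2.48 to 3.49), and the ratio for Wnt7b was 1.40 (1.25 to 1.57). Among cells with 5000 to under 20000 UMIs (291 control, 45 cKO), Wnt7a was 20.1 and 8.87 CPM, a ratio of 0.441 (0.116 to 1.20), and Wnt7b had a ratio of 0.171 (0.0621 to 0.378). Under 5000 UMIs the Wnt7a ratio was 1.37 (0.158 to 5.44), from 28 control and 2 cKO UMIs, and Wnt7b, with 111 and 0 UMIs, had an interval up to 0.648. For Wnt7a the intervals of both shallower ranges included 1, whereas those of Wnt7b lay below 1. In that middle range Krt8 was 2724 CPM in control and 683 CPM in cKO, and Ptprc 50.8 and 1009 CPM, whereas in the deepest cells Krt8 was 4903 and 5193 CPM and Ptprc 1.63 and 26.5 CPM. When the class was limited to cells with a Krt8 UMI and no Ptprc UMI, which left 879 control and 48 cKO cells, the log2 ratio was 1.75 for Wnt7a and 0.50 for Wnt7b, against 1.43 and 0.34 in the whole class. Weighting each cell equally gave a log2 ratio of 0.33 for Wnt7a and turned that of Wnt7b to -1.31. The class as gated thus gave a higher Wnt7a level in cKO under each of these settings except in the middle depth range, while the direction for Wnt7b turned with the depth range and with the weighting of cells.

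**Figure D2:**
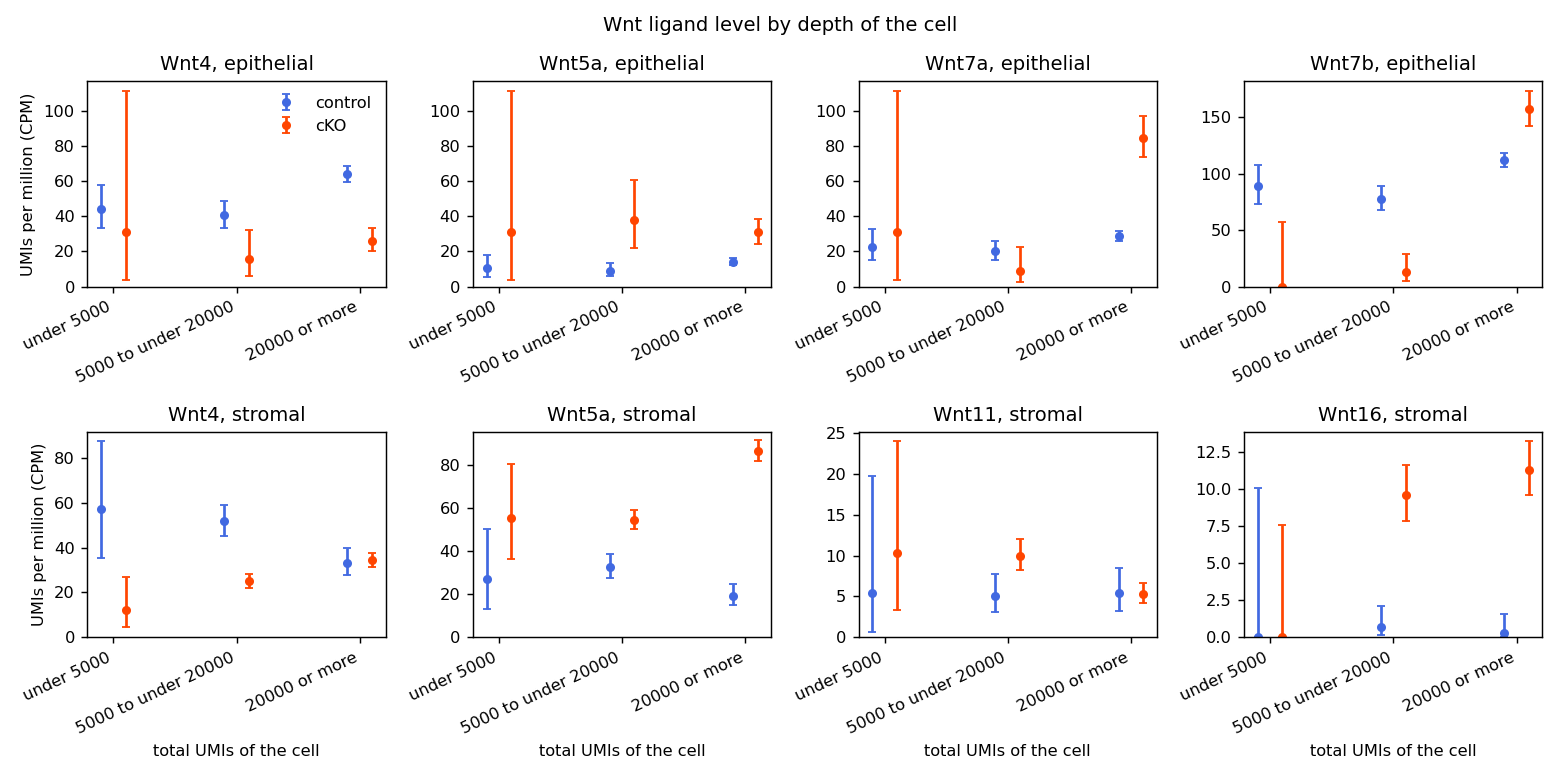
Level (CPM, exact 95% Poisson intervals) of 4 Wnt ligands in the epithelial class (top) and 4 in the stromal class (bottom), with cells split by their total UMIs, for control and cKO. In cells with at least 20000 UMIs, Wnt7a and Wnt7b were above control in cKO, Wnt4 was near control in the stromal class and Wnt16 was at 11.3 CPM in the cKO stromal class against 0.285 CPM in control.

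Wnt4, which can act with and without beta-catenin, had UMIs in all 6 classes of both libraries, as Wnt11 did. In control it was 80.6 CPM (49.2 to 124) in the mesothelial class, 58.7 (55.1 to 62.5) in the epithelial, 44.0 (39.5 to 48.8) in the stromal and 32.1 (20.6 to 47.8) in the muscle class. The first and second of these did not differ beyond counting error (ratio 1.37, 0.834 to 2.13), and lymphoid (17.5) and macrophage (4.65) cells stood below the cell-free level of 28.7 CPM. In cKO the order was mesothelial (126 CPM), muscle (51.1), stromal (30.0), epithelial (24.6), lymphoid (4.97) and macrophage (1.84), with a cell-free level of 31.5 CPM. Only the mesothelial and muscle classes were thus above the cell-free level of the cKO library.

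Wnt4 was lower in cKO in the epithelial class, from 58.7 to 24.6 CPM, a ratio of 0.420 (0.327 to 0.531), and it stayed lower in the cells with at least 20000 UMIs (0.408, 0.313 to 0.525). With overlapping gates, which add every cell with Epcam and another gate gene, the epithelial log2 ratio was -0.07 in place of -1.25, and the Wnt4 UMIs went from 989 to 1184 in control and from 75 to 324 in cKO. Epcam cells with Msln numbered 23 in control and 45 in cKO and held 116 and 225 Wnt4 UMIs (144 and 129 CPM). Epcam cells with the stromal gate gene numbered 39 and 28, with the muscle gene 28 and 11, with the macrophage gene 13 and 1 and with a lymphoid gene 8 and 7. Stromal Wnt4 was 44.0 and 30.0 CPM, a ratio of 0.682 (0.601 to 0.776), but the ratio was 0.482 (0.402 to 0.579) in cells of 5000 to under 20000 UMIs and 1.04 (0.846 to 1.28) in deeper cells. In the muscle class it was 32.1 and 51.1 CPM, a ratio of 1.59 (1.00 to 2.62), from 24 and 85 UMIs. The share of the Wnt4 UMIs in cells that came from the epithelial class was 56.2% in control and 5.07% in cKO, and that from the stromal class 20.1% and 51.8%. Of the UMIs of all genes in cells, the epithelial class held 16846811 of 37682476 in control and 3044333 of 52903672 in cKO. The stromal class held 8053221 and 25535884 of these totals. The shares of a ligand thus depend also on the UMIs that each class held.

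Wnt5a, a ligand best known for signalling without beta-catenin through Ror receptors, had its highest level in the mesothelial class, at 145 CPM (102 to 201) in control and 195 (149 to 252) in cKO. These were 36 UMIs in 26 cells, 15 of them in 1 cell, and 59 in 32 cells. In the mesothelial class the epithelial marker list summed to 1567 CPM in control and 1158 CPM in cKO and the stromal list to 10387 and 14085 CPM, and their part in its levels was not tested. The stromal class was next, and the mesothelial level was 5.43-fold (3.70 to 7.76) above it in control and 2.70-fold (2.05 to 3.50) in cKO. As log2 ratios these were 2.44 and 1.43, and they fell to 0.95 and 0.31 with overlapping gates and to 1.49 and 0.55 with the gate by the class gene with the most UMIs. Macrophages had 0 UMIs in both libraries and lymphoid cells 0 and 2. Of the Wnt5a UMIs in cells, the stromal class held 34.4% and the epithelial class 35.2% in control, against 72.3% and 3.80% in cKO. As for Wnt4, these shares depend also on the UMIs that each class held.

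In the stromal class Wnt5a was 26.7 CPM (23.2 to 30.5) in control and 72.3 CPM (69.0 to 75.6) in cKO, a ratio of 2.71 (2.35 to 3.13). The ratio was 2.04 (0.956 to 4.72) in cells under 5000 UMIs, 1.66 (1.38 to 2.02) in cells of 5000 to under 20000 and 4.48 (3.51 to 5.81) in deeper cells. A UMI was found in 13.0% of 621 control and 29.8% of 1469 cKO cells, or in 2.95% and 4.87% after thinning to 1000 UMIs, where the exact intervals overlapped. At least 5 UMIs were found in 14 control and 127 cKO cells. The epithelial class had a ratio of 2.44 (13.1 and 31.9 CPM) and the muscle class of 2.84 (1.40 to 6.53; a log2 ratio of 1.51, or 0.35 with overlapping gates), while the mesothelial ratio of 1.35 (0.875 to 2.10) did not differ from 1 beyond counting error. The cell-free level was 9.31 CPM in control and 28.0 CPM in cKO, so the cKO epithelial level was close to that of cell-free RNA and its part in that ratio was not tested. In the epithelial class the stromal marker list summed to 84.8 CPM in control and 187 CPM in cKO. The muscle list summed to 52.4 and 566 CPM there and the lymphatic endothelial list to 1.90 and 99.2 CPM. The part of such cells in the epithelial Wnt5a ratio was not tested.

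Wnt16, a ligand with canonical and other activities in several tissues, had its highest level in the epithelial class in control and in the stromal class in cKO. The control order was not resolved: the epithelial class was 1.90-fold (0.321 to 76.7) above the lymphoid class, which had 1 UMI. In control 72.7% of its 55 UMIs in cells were epithelial and 7.27% stromal. In cKO 2.19% of 366 were epithelial and 72.4% stromal. These shares, too, depend also on the UMIs that each class held. The control stromal class had 4 UMIs in 4 cells (0.497 CPM, 0.135 to 1.27) and the cKO stromal class 265 UMIs in 125 cells (10.4 CPM, 9.17 to 11.7), a ratio of 20.9 (8.06 to 77.2). The epithelial level was 2.37 CPM in control and 2.63 in cKO (ratio 1.11). Mesothelial, muscle and macrophage cells had 0 UMIs in both libraries, and the cell-free level was 1.55 CPM in control and 3.94 CPM in cKO.

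The cKO stromal Wnt16 signal was spread over cells: 66 of the 125 positive cells had 1 UMI, the highest had 8, and the 10 highest held 24.5% of the UMIs. It was found in the deeper cells, with 0 UMIs in 178 cells under 5000 UMIs, 106 in 833 cells of 5000 to under 20000 and 159 in 458 deeper cells. Against the same ranges in control the ratio was 13.4 (4.46 to 66.0) in the middle range, from 3 control UMIs, and 39.8 (7.04 to 1581) in the deepest, from 1. Thinned to 1000 UMIs, 0 of 611 control cells had a Wnt16 UMI, which allows a share at that depth of up to 0.491% by 3 counts and 0.602% by the exact interval. Of 1458 cKO cells 0.892% had one, and the exact intervals overlapped.

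Wnt2, Wnt6 and Wnt10a were rare. Wnt2, a mesenchymal ligand that acts through beta-catenin, had its highest level in the stromal class, with 11 control UMIs (1.37 CPM) and 61 cKO UMIs (2.39 CPM), a ratio of 1.75 (0.912 to 3.69) that did not differ from 1 beyond counting error. Its other class UMIs were 2 in cKO muscle (1.20 CPM) and 1 in cKO epithelial cells, and the cKO stromal level was not resolved from that of muscle (1.99-fold, 0.527 to 16.8). Wnt6 had 2 UMIs in the control and 8 in the cKO stromal class, 0 in control epithelial cells and 1 each in cKO epithelial and lymphoid cells. Wnt10a, which acts in skin and its appendages, had 4 UMIs in 3 epithelial cells of each library (0.237 and 1.31 CPM), a ratio of 5.53 (1.03 to 29.7) that rests on these few cells, and 1 other UMI, in a cKO stromal cell. For Wnt6 no class difference between libraries was resolved at these counts.

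Wnt11, a ligand of cell movement and polarity, was the one with a large part outside the gates. Of its UMIs in cells, 35.6% in control and 31.3% in cKO came from cells with no gate gene. Among the classes Wnt11 was highest in the mesothelial, at 32.2 CPM (13.9 to 63.5) in control and 39.7 CPM (20.5 to 69.4) in cKO. It was 6.18-fold (2.51 to 13.3) above the stromal class in control and 3.08-fold (1.30 to 7.17) above the macrophage class in cKO. In the mesothelial class the dendritic marker list summed to 294 CPM in control and 112 CPM in cKO. The lymphatic endothelial list summed to 0 and 443 CPM, and the part of such cells in its Wnt11 level was not tested. The cKO macrophage value of 12.9 CPM rested on 14 UMIs in 3 cells, and the muscle class had 2 control and 4 cKO UMIs. In the stromal class Wnt11 was 5.22 CPM in control against 7.40 in cKO, a ratio of 1.42 (1.01 to 2.03), and in the deepest stromal cells the ratio was 0.975 (0.582 to 1.71). The cell-free level was 2.72 CPM in control and 10.1 CPM in cKO, above the cKO stromal level.

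The cells with no gate gene were split, after their values were seen, by UMIs of Ccr7, a chemokine receptor of migrating dendritic cells and of naive lymphocytes, and Prox1, a transcription factor of lymphatic endothelium. Cells with Ccr7 and no Prox1 held Wnt11 at 20.5 CPM (13.4 to 30.0) in 135 control cells and 32.3 CPM (25.9 to 39.9) in 218 cKO cells. Cells with neither gene held it at 8.66 CPM (5.84 to 12.4) and 6.49 CPM (4.86 to 8.49), the latter below the cell-free level of the cKO library. The Ccr7 cells carried 44.8% of the ungated Wnt11 UMIs in control and 53.8% in cKO. In the lymphoid class all 2 control and all 12 cKO UMIs of Wnt11 lay in Ccr7 cells, from 1 and 3 cells. Other classes did not all go this way. In cKO, 7 macrophage and 1 mesothelial Ccr7 cells without Prox1 had 0 UMIs, against 10 and 12 in cells with neither gene. The cKO stromal levels were 8.04 and 7.25 CPM. In control, Ccr7 cells were higher in the macrophage (25.2 and 2.71 CPM), mesothelial (86.2 and 26.7 CPM) and stromal class (10.1 and 5.20 CPM), from 2, 2 and 1 UMIs. Prox1 cells without Ccr7 held it at 5.72 CPM (18 cells, 2 UMIs) and 16.0 CPM (47 cells, 17 UMIs). The Ccr7 cells were deeper than those with neither gene (medians of 8833 and 2384 UMIs in control, 11606 and 3887 in cKO), and the part of depth in this difference was not tested.

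**Figure D3:**
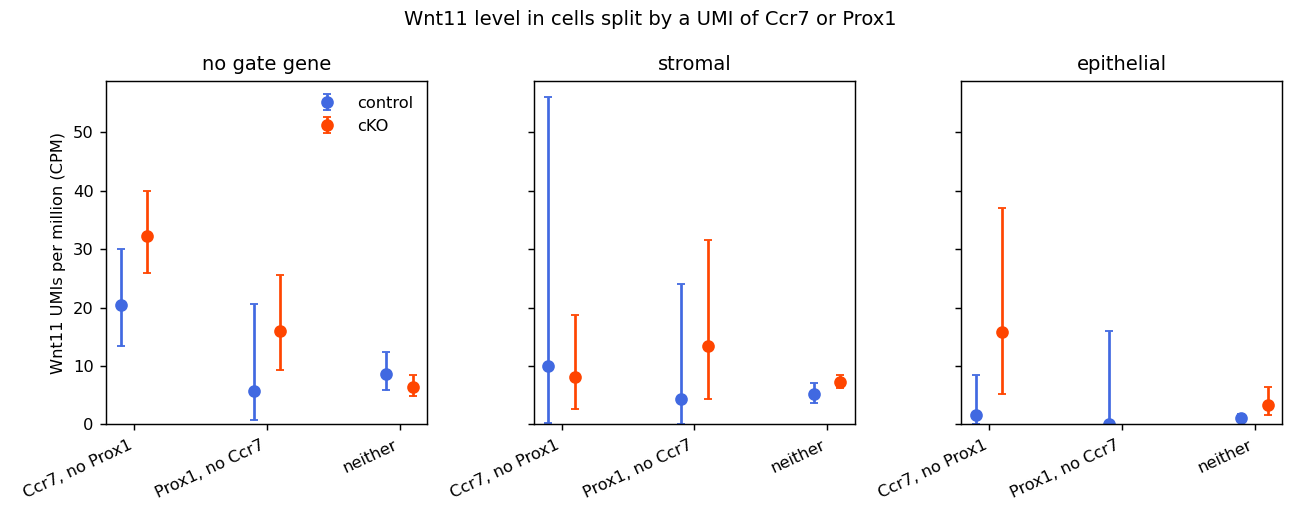
Wnt11 level (CPM, exact 95% Poisson intervals) in cells with no gate gene and in the stromal and epithelial classes, split by a UMI of Ccr7 or Prox1, for control and cKO; the cKO epithelial class had no cell with Prox1 and no Ccr7. In cells with no gate gene, Wnt11 was 20.5 CPM in control and 32.3 CPM in cKO where Ccr7 was found and 8.66 and 6.49 CPM where neither gene was.

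The top class of each ligand was then read against all genes. A gene was counted when its highest class was at least 2-fold above the next, among genes with at least 20 UMIs over the 6 classes. In control 4 of the 6 ligands that could be counted met this (Wnt5a, Wnt7a, Wnt7b and Wnt11), where 34.8% of 14297 genes did. In cKO 6 of 7 met it (Wnt4, Wnt5a, Wnt7a, Wnt7b, Wnt11 and Wnt16), where 32.3% of 14532 genes did. With overlapping gates, Wnt5a in both libraries and Wnt7b in control fell under 2-fold between these classes, at log2 ratios of 0.95 (control) and 0.31 (cKO) for Wnt5a and 0.47 for Wnt7b.

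Between the libraries a gene with at least 10 UMIs was counted at a 2-fold difference. In the epithelial class 27.6% of 14033 genes were higher in cKO and 11.9% lower. Of the 6 ligands counted there, Wnt5a, Wnt7a and Wnt11 (1.07 and 4.60 CPM, from 18 and 14 UMIs) were higher and Wnt4 lower, with a median log2 ratio of 0.81 against 0.42 over all genes. Both Wnt11 levels were below those of cell-free RNA (2.72 and 10.1 CPM), and 5 of the 14 cKO UMIs lay in 6 Ccr7 cells, against 1 of the 18 control UMIs in 23. Genes with at least 50 UMIs in each library had a median epithelial log2 ratio of 0.34, and relative to it Wnt7a (1.08) and Wnt11 (1.76) remained past 2-fold, Wnt5a (0.95) did not, and Wnt7b was at -0.0023. With overlapping gates neither Wnt7a nor Wnt4 was past 2-fold. Wnt7a was also under 2-fold with cells weighted equally and when thinned. In the stromal class 7.7% of 14931 genes were higher and 8.16% lower. There Wnt5a and Wnt16 of 6 ligands were higher and none was lower, with a median of 0.66 against -0.03. In the muscle class 11.3% of 10612 genes were higher and 5.85% lower, and Wnt5a of 2 ligands was higher, though not with overlapping gates. In the mesothelial class 15.5% of 7130 genes were higher and 6.28% lower, and Wnt7b of 4 ligands was lower, from 7 and 3 UMIs (ratio 0.352, 0.0587 to 1.54).

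**Figure D4:**
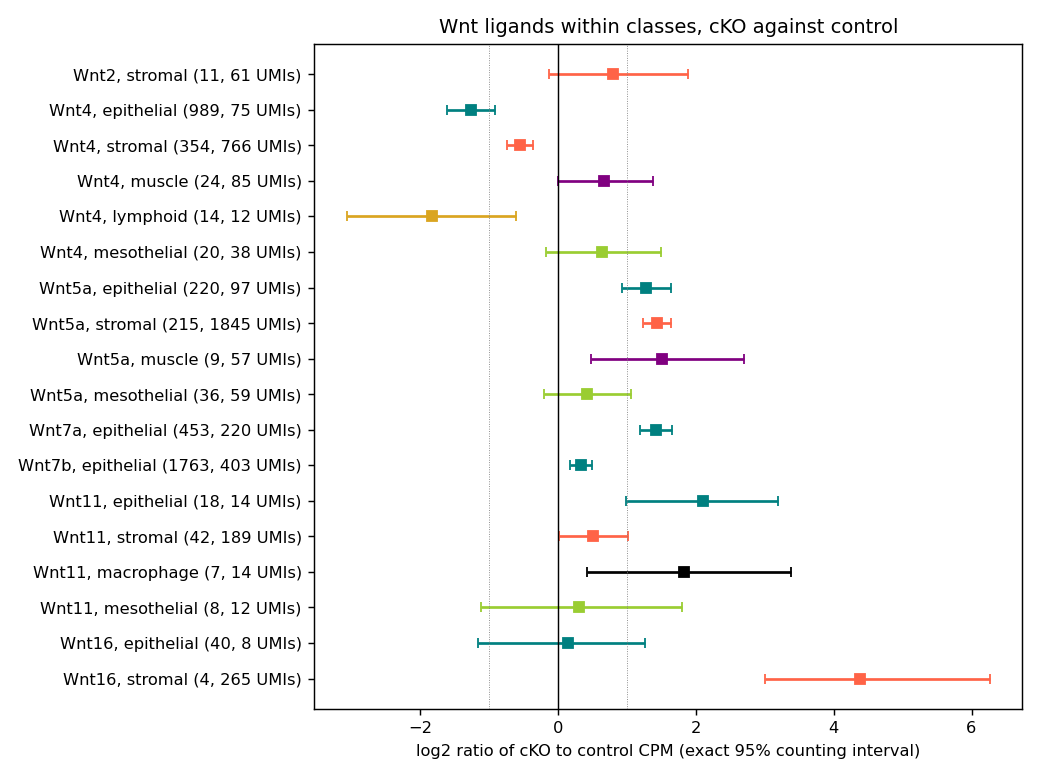
Log2 ratio of cKO to control CPM for each Wnt ligand and class with at least 20 UMIs over both libraries, with exact 95% counting intervals and the UMIs of each library beside the name. Dotted lines mark 2-fold; Wnt16 in the stromal class stands farthest from 0, and Wnt4 stands below 0 in the epithelial, stromal and lymphoid classes and above 0 in the muscle class.

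Ligands found in the same cell were counted as the share of cells with a UMI of a second ligand among cells with and without the first. With each cell thinned to 3000 UMIs, 6 pairs in control epithelial, 1 in control stromal and 6 in cKO stromal cells had at least 20 cells of each ligand, and in 0 of these 13 pairs were the 2 intervals apart. Wnt7b was found in 14 of 42 Wnt7a cells of the control epithelium (33.3%, 19.6 to 49.5) and in 20.4% of the rest. Wnt5a was found in 9 of 42 Wnt16 cells of the cKO stroma (21.4%) and in 11.9% of the rest. Without thinning the shares were 75.5% against 33.9% and 70.4% against 26.0%, but the cells with a ligand were also deeper (for Wnt16, medians of 22369 and 15292.5 UMIs).

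A deeper common depth resolved 3 pairs, in cKO stroma. Thinning to 20000 UMIs, added after the values above were seen, left 458 of 1469 cKO stromal cells, 132 control stromal and 249 control epithelial cells. In cKO stroma Wnt5a was found in 35 of 50 Wnt16 cells (70.0%, 55.4 to 82.1) and in 37.7% (33.0 to 42.6) of the others. Wnt4 was found in 23 of those 50 (46.0%, 31.8 to 60.7) and in 24.5% (20.4 to 29.0) of the others, and Wnt5a in 67 of 123 Wnt4 cells (54.5%, 45.2 to 63.5) and in 36.4% (31.3 to 41.8) of the others. Without thinning these same cells gave 81.7% against 41.1%, 54.9% against 29.5% and 62.7% against 39.7%. In deep cKO stromal cells each of Wnt16, Wnt5a and Wnt4 was thus found more often in cells that carried another of the 3 than in cells without it.

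The other pairs were not resolved. In cKO stroma Wnt4 was found in 4 of 36 Wnt11 cells (11.1%, 3.11 to 26.1) and in 28.2% of the others, and Wnt5a in 5 of 24 Wnt2 cells (20.8%, 7.13 to 42.2) and in 42.4% of the others. Control stroma allowed 1 pair: Wnt5a was found in 8 of 33 Wnt4 cells (24.2%) and in 17.2% of the others, with intervals that overlapped. In control epithelium Wnt7b was found in 66 of 82 Wnt7a cells (80.5%, 70.3 to 88.4) and in 67.7% (60.0 to 74.7) of the others, and Wnt4 in 121 of 179 Wnt7b cells (67.6%) and in 48.6% of the others. Of the 249 control epithelial cells, 67.9% had at least 2 of the 9 ligands and 75 had at least 3, against 22.9% and 27 of the 458 cKO stromal cells. The cKO epithelial class had 35 cells at this depth and no pair with 20 cells of each ligand. No doublet caller was run. The gates leave out a doublet only where gate genes of different classes each had a UMI. Doublets within a class, or with a cell in which no gate gene was found, stay in.

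**Figure D5:**
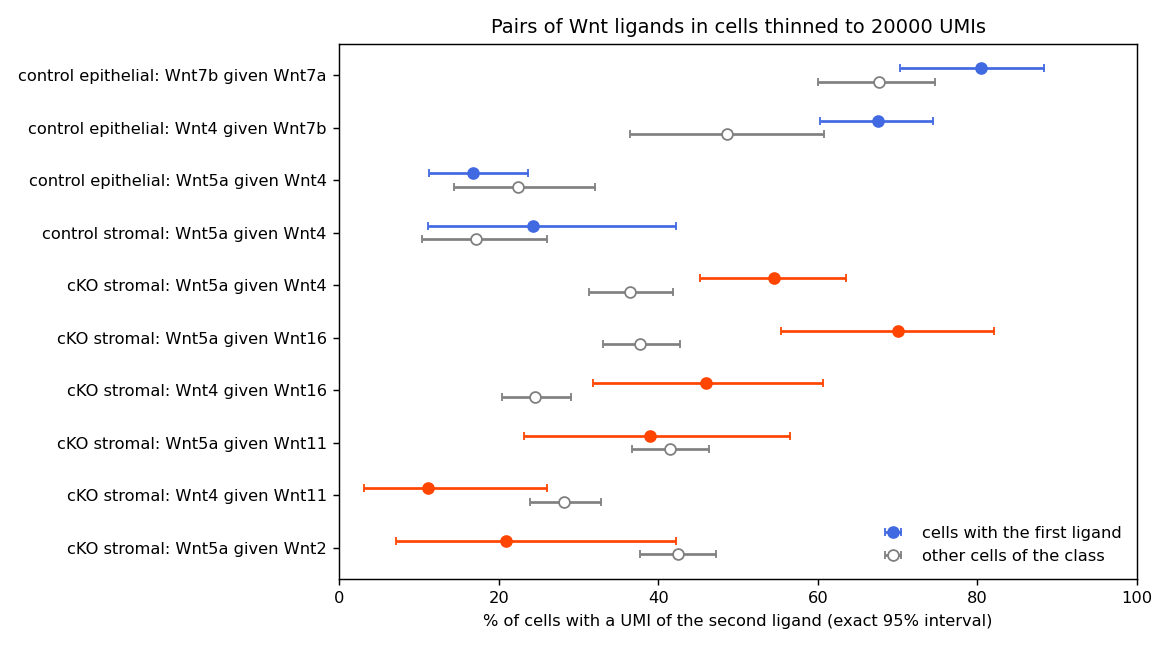
Share of cells with a UMI of a second Wnt ligand among cells with the first (filled) and among other cells of the class (open), each cell thinned to 20000 UMIs, with exact 95% intervals, for 10 pairs from 3 class and library combinations. The intervals stand apart for Wnt5a given Wnt4, Wnt5a given Wnt16 and Wnt4 given Wnt16 in cKO stroma.

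Other genes of the same cells differed too. They were picked from genes that differed most between stromal cells with and without a ligand, after those values were seen, so the shares describe these cells only. At 20000 UMIs, Aldh1a2, an enzyme of retinoic acid synthesis, was found in 86.0% of the 50 Wnt16 cells and 51.5% of the others, and in 81.5% of 189 Wnt5a cells and 36.8% of the others. The homeobox gene Prrx2 was found in 62.0% against 30.6% for Wnt16 and 58.2% against 17.1% for Wnt5a. Lef1, a transcription factor of the canonical pathway and itself a target of it, was found in 24.0% against 5.88% for Wnt16 and 13.2% against 4.09% for Wnt5a. The cytokine gene Il6 went the other way for Wnt5a (11.6% against 45.0%) and for Wnt4 (13.8% against 37.6%), and was found in 58.3% of 24 Wnt2 cells against 29.7%. Without thinning, Il6 was found in 18.0% against 49.8% for Wnt5a, 20.9% against 41.6% for Wnt4 and 64.3% against 32.8% for Wnt2, and Aldh1a2 in 93.0% against 51.2% for Wnt16. Control Wnt5a stromal cells also had Aldh1a2 at 237 CPM against 12.8 in the rest, and Il6 at 34.7 against 166 CPM.

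The genes with the most alike profile were taken by Pearson correlation of log2(CPM + 1) over the 12 class and library sums, which share libraries, classes and cell-free RNA. They were Esrp2 for Wnt7a (r = 0.988), Cftr for Wnt7b (0.983), Ptk7 for Wnt5a (0.991), D430019H16Rik for Wnt2 (0.994), Prpf40b for Wnt4 (0.955), Galnt4 for Wnt11 (0.910) and Ssr2 for Wnt16 (0.843). Wnt6, with 12 UMIs over the sums, and Wnt10a, with 9, gave Faf2 (0.849) and Dsg3 (0.992). The next on each list were 4833423E24Rik and Fermt1 for Wnt7a, Tspan8 and Camsap3 for Wnt7b, Ghr and Egr3 for Wnt5a, Lrrc10b and Prrx2 for Wnt2, Arhgap5 and Cdc42ep1 for Wnt4, Pank3 and Icosl for Wnt11, Snd1 and Scnn1b for Wnt16, Rer1 and Atp13a1 for Wnt6, and Gm30414 and Chil5 for Wnt10a. Ptk7 encodes a Wnt co-receptor of the polarity branch.

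The machinery around the ligands was counted over lists of pathway genes at the same 2-fold rule. Of all genes, 27.6% were higher in cKO and 11.9% lower in the epithelial class, and 7.7% and 8.16% in the stromal class. The counts of every list below are to be read beside these shares. Of 16 receptors and co-receptors, 14 could be counted in the epithelial class. Fzd1, Fzd3 and Ptk7 were higher in cKO, Fzd4, Fzd5 and Fzd7 were lower, and the median log2 ratio was -0.08. Relative to the epithelial median shift of 0.34, none of the 3 higher receptors remained past 2-fold and the same 3 were lower. Fzd5, a canonical receptor, was 84.9 CPM in control and 33.8 CPM in cKO (ratio 0.398, 0.323 to 0.487). Of 15 stromal receptors Fzd2 was higher (16.8 and 40.7 CPM, ratio 2.43) and Fzd9 lower. Ror2, the receptor that pairs with Wnt5a, was 130 CPM in control stroma and 228 CPM in cKO stroma (ratio 1.76, 1.65 to 1.88), under the 2-fold mark.

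Canonical targets and feedback genes were counted for 7 of 9 in the epithelial class, where Lef1, Tcf7, Znrf3 and Ccnd1 were higher and none was lower (median 1.17, or 0.83 and without Znrf3 relative to the median shift). Ccnd1, a cell cycle gene, was 71.7 CPM in control and 273 CPM in cKO. Tcf7 and Lef1 are also T cell genes, and the lymphoid marker list summed to 14.5 CPM in the control epithelial class and 383 CPM in the cKO epithelial class, and the part of those cells was not tested. In the stromal class 8 of 9 were counted: Lef1 and Tcf7 were higher and Ccnd1 was lower (5.46 and 1.21 CPM), with a median of 0.23. Lgr5, a receptor of R-spondins and a target, also passed 2-fold (ratio 2.05, 0.464 to 18.7), but from 2 and 13 UMIs and with an interval that included 1. Stromal Lef1 went from 3 UMIs (0.373 CPM) to 194 UMIs (7.60 CPM), a ratio of 20.4 (6.88 to 99.8), beside lymphoid marker sums of 26.7 and 37.0 CPM. Axin2, a general feedback target, was 60.1 and 99.8 CPM in stroma (ratio 1.66, 1.51 to 1.83).

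A list of 4 genes of ligand release or inactivation held Porcn, Wls, Notum and Trabd2b. The 2 past 2-fold in the epithelial class both inactivate Wnt proteins. Trabd2b, which encodes a protease that cleaves Wnt proteins, was higher in cKO (1.19 and 6.90 CPM). Notum, a Wnt deacylase, was lower (8.61 and 2.30 CPM). None passed 2-fold in the stromal class. Trabd2b was 149 and 254 CPM in the stromal class, and the stromal marker list summed to 84.8 CPM in the control and 187 CPM in the cKO epithelial class. The part of stromal RNA in the epithelial value was not tested. Wls, the carrier needed for Wnt secretion, was 142 and 145 CPM in the epithelial class and 98.0 and 160 CPM in the stromal class. Of 10 planar cell polarity genes 9 could be counted in the epithelial class, with Vangl1 higher and Vangl2, Celsr1 and Prickle3 lower (median -0.11). Relative to the median shift Vangl1 was not past 2-fold and Dvl1 joined the lower genes. In the stromal class Celsr1 had 0 control and 11 cKO UMIs, and the interval of the ratio, from 0.792 upward, included 1. Of the 10 Wnt ligands outside the set of 9, only 2 could be counted in each class: Wnt5b was past 2-fold in the stromal class (1.24 and 2.55 CPM, from 10 and 65 UMIs) and in the epithelial class (0.653 and 1.31 CPM), there from 11 and 4 UMIs with an interval of 0.467 to 6.79 that included 1, and Wnt9a was lower in the epithelial class (6.47 and 2.96 CPM). Relative to the median shift, epithelial Wnt5b was not past 2-fold.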

How the data were processed

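The deposited values were raw UMI counts per gene and barcode from droplet-based 3′ libraries, unfiltered, made with Cell Ranger, version 4 per the file headers and 6.1.1 per the submitters' processing notes, which name the build mm10 (GRCm38). The libraries held 45035801 (control) and 57145553 (cKO) UMIs. Cells had at least 500 genes and at most 20% mitochondrial UMIs, and 283 control and 46 cKO barcodes exceeded the latter. Counts were summed per class and library and divided by all UMIs of that class (CPM). Intervals are exact Poisson (CPM), Clopper-Pearson (shares) and conditional binomial (ratios) at 95%, with 3 counts as the floor for 0. Only the ratio code was run on simulated data. Those were independent Poisson counts, so the run checks the code and does not cover UMIs that are concentrated in few cells. Cell-free RNA was read from barcodes with at most 100 UMIs. Shares were thinned to 1000 UMIs by a single random draw, pairs to 3000. All 9 ligands are named, together with pathway genes past 2-fold when 5 or fewer and the 3 most alike genes of each ligand. Other named genes were picked after their values were seen. Members and lists were chosen with earlier results of these data known. Alternatives covered gates, filters, weighting, scaling, cell-free RNA and single cells. Positions come from GENCODE M21 and promoters from RefSeq. Python 3.11.15 with numpy 2.4.6, scipy 1.17.1 and pandas 2.3.3 was used.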

Additional observations from a re-analysis of the deposited data

Results flagged for a closer look

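The Wnt4 ratios lay on opposite sides of 1 in different cell classes. Its log2 ratio of cKO to control was -1.25 in the epithelial class, -0.55 in the stromal class and -1.82 in the lymphoid class, each with a counting interval below 0, and 0.67 in the muscle class, with an interval from 0.0011. The median shift of the muscle class was 0.053, so relative to it the muscle interval includes 0. The epithelial value was -0.072 with overlapping gates, and the stromal value was 0.053 in cells with at least 20000 UMIs. With 1 library per group the difference between the classes was not tested. In the lymphoid class both levels stood below that of cell-free RNA, as did the cKO epithelial (24.6 CPM) and stromal (30.0 CPM) levels, against 31.5 CPM.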

How the results depend on the processing

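Values are log2 ratios of cKO to control unless named otherwise, and a value is listed where it left the counting interval of the reported one; the causes were not tested. Wnt16 in the stromal class stayed within its interval under every alternative that gave a value; thinning to 1000 UMIs, a single random draw that leaves few UMIs, left no control UMI of Wnt16, Wnt11 or Wnt2 in that class and no cKO UMI of Wnt4 in the epithelial class, so these have no value there. Stromal Wnt5a (reported 1.44) was 1.22 with overlapping gates, 1.06 with cells weighted equally, 0.87 thinned to 1000 UMIs (19 and 83 UMIs), 1.12 without the 5% of cells with the most UMIs and 2.16 in cells with at least 20000 UMIs. Stromal Wnt4 (-0.55) was -0.89 with equal weights, -0.78 without the deepest 5%, and reversed to 0.053 in cells with at least 20000 UMIs, where stromal Wnt11 (0.51) reversed to -0.037. Epithelial Wnt4 (-1.25) was -0.072 with overlapping gates, -0.71 with the gate by the class gene with the most UMIs and -1.97 without the deepest 5%. Epithelial Wnt7a (1.43) was 0.70 with overlapping gates, 0.33 with equal weights, 0.61 thinned (18 and 3 UMIs), 1.08 with median scaling, 1.10 without the deepest 5% and 1.75 in cells with Krt8 and no Ptprc. Epithelial Wnt7b (0.34) was 0.51 with a gate of 2 UMIs and 0.50 in cells with Krt8 and no Ptprc, and reversed to -0.23 with overlapping gates, -1.31 with equal weights, -1.01 thinned (92 and 5 UMIs), -0.0023 with median scaling and -0.60 without the deepest 5%. The share of Wnt7a cells with Wnt7b (33.3%) was 75.5% without thinning and 80.5% at 20000 UMIs, and that of Wnt16 cells with Wnt5a (21.4%) was 70.4%, 70.0% and, at 1000 UMIs, 7.69%. In the other classes 118 of 123 alternatives stayed within the interval and 0 reversed. A change of sign was counted as reversed only where the reported interval lay wholly above or below 0. Epithelial Wnt16 (0.15), with an interval across 0, was -0.20 with median scaling and was thus not counted. Thinned, muscle Wnt4 (0.67) was 2.98, lymphoid Wnt4 (-1.82) -0.47 and epithelial Wnt5a (1.29) 1.97, and with overlapping gates epithelial Wnt5a was 1.84 and muscle Wnt5a (1.51) 0.35. For the order of classes 55 of 63 stayed and 0 reversed, where only orders with an interval wholly above 0 could be counted as reversed. With overlapping gates the log2 ratio of mesothelial to stromal Wnt5a was 0.95 in control (2.44) and 0.31 in cKO (1.43), of epithelial to mesothelial Wnt7b 0.47 (1.89) and 1.91 (3.74), and of epithelial to muscle Wnt7a in control 1.13 (4.33). With the gate by the class gene with the most UMIs the Wnt5a ratios were 1.49 and 0.55, and with equal weights the cKO Wnt7b ratio was 1.17. The depth strata, the Krt8 and Ptprc limit and the depth of 20000 UMIs were chosen after seeing the data. No paired analysis was possible because each group is 1 library. Genotype, animals and library preparation cannot be told apart, and the cycle stage of the mice is not given in the sources used here.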

Other observations

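Cells carrying both Epcam and Msln, which the classes leave out, numbered 23 in control and 45 in cKO, with medians of 25568 and 23222 UMIs. They held Wnt4 at 144 CPM (119 to 172) in control and 129 CPM (113 to 147) in cKO, where the mesothelial class held it at 80.6 CPM (49.2 to 124) and 126 CPM. Wnt11 was 12.4 CPM (5.94 to 22.8) and 32.6 CPM (24.7 to 42.3), Wnt5a 27.3 and 68.7 CPM, and Wnt7b 89.2 and 27.5 CPM. Wnt7a was 32.2 CPM from 26 UMIs in 6 control cells and 1.14 CPM from 2 UMIs in 1 cKO cell. The mesothelial marker list summed to 1797 CPM in the control and 1781 CPM in the cKO cells, the epithelial list to 6434 and 2246 CPM, and the stromal list to 6131 and 10703 CPM. Doublets were not called, and their part in these cells was not tested.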
